A study of Mus musculus with 6 samples.

Results

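The mouse alpha-globin cluster on chromosome 11 sits in a dense stretch of genes that are not globins. Of these, 5 genes are described here, Il9r, Snrnp25, Rhbdf1, Mpg and Nprl3, chosen by name on the array: every non-control probe carrying one of these names was taken, 9 probes of 55681, for 5 genes of 34964 features. Of the 5, 4 passed the detection filter (well above background in 3 or more arrays of 6) and were tested among 22133 features, here called genes. RNA came from the mouse line G1E-ER-GATA-1, which stands for an erythroid precursor. It has no GATA-1 of its own and carries an oestrogen-receptor fusion of GATA-1 that oestradiol activates. The Mi2β siRNA group (3 samples) received siRNA against Mi2β, the ATPase of the NuRD complex encoded by Chd4, and the control siRNA group (3 samples) received a non-targeting siRNA. Both groups were nucleofected at 0 h and 24 h, were given β-estradiol at 24 h, and were harvested at 48 h, so no sample here lacks oestradiol. Both grew with puromycin, erythropoietin and Kit ligand. Every sample is of 1 line, and nothing in the labels tells whether replicates were separate cultures. The p-values therefore rest on a spread between samples that may be technical. The comparison asks which transcripts of the neighbourhood differ when Mi2β is depleted in cells maturing under GATA-1.

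In mammals the alpha-globin genes are driven by distant enhancers bound by erythroid factors such as GATA-1 and KLF1, and several of these enhancers lie inside introns of Nprl3. Nprl3 encodes a subunit of GATOR1, which restrains mTORC1 when amino acids are scarce. Mpg encodes a DNA glycosylase that starts base excision repair of alkylated purines. Snrnp25 encodes a protein of the minor spliceosome, which removes a rare class of introns. Rhbdf1 encodes an inactive rhomboid that helps to carry the protease ADAM17 to the cell surface, and Il9r encodes the ligand-binding chain of the interleukin-9 receptor.

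By the probe coordinates of the files (mm9), the members lie in the order Il9r, Snrnp25, Rhbdf1, Mpg, Nprl3, all at lower coordinates than the embryonic globin gene Hba-x. Their probes stand at -87.2 kb, -68.8 kb, -68.1 kb, -45.8 kb and -44.8 kb from the Hba-x probe. The Il9r, Rhbdf1 and Nprl3 probes read the minus strand, and those of Snrnp25 and Mpg the plus strand. Il9r and Snrnp25 therefore run away from each other, as do Rhbdf1 and Mpg, while Snrnp25 and Rhbdf1 run towards each other, with 653 bases between their probes. Mpg and Nprl3 also run towards each other: 917 bases separate their nearest probes, and in RefSeq's genes of GRCm38.p6 the spans of these 2 genes overlap. No other pair of members has overlapping spans in that table.

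The promoter of Snrnp25, the member that passed the test, is shown with that of Il9r, which starts on the opposite strand next to it and did not pass. Both are RefSeq windows of build GRCm38.p6, from 250 bases before to 50 after the annotated start. Capitals mark GATA motifs on either strand: AGATAA was searched, as was its variant AGATAG, and with a first T the form TGATAA or its variant TGATAG.
Snrnp25 promoter, chr11:32205165-32205464, plus strand: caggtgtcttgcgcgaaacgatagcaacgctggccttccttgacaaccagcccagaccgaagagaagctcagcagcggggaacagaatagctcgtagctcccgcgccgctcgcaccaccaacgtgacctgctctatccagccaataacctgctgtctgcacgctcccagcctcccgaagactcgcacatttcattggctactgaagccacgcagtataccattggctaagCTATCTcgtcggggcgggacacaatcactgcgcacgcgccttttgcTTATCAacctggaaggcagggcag
Il9r promoter, chr11:32200230-32200529, minus strand: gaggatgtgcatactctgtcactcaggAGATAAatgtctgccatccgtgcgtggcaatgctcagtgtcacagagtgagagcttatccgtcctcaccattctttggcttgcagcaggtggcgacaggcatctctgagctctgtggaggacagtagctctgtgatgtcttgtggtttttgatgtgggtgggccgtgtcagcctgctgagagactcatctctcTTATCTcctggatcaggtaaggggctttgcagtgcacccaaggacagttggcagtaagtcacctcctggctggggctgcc
Each window holds 2 GATA motifs. Of the 32851 RefSeq promoter windows, 29.8% hold at least 1 and 1.76% at least 3, and the share with 2 was not counted. No window was found for Rhbdf1. The windows of Mpg and Nprl3 hold 0 of these motifs, and that of Hba-x holds 2. The motif CCNCNCCC, a core of sites for factors such as KLF1, was counted on either strand as well. It occurs 3 times in the Mpg window, 4 times in the Nprl3 window and 1 time in that of Hba-x. In those of Snrnp25 and Il9r it occurs 0 times. Of all windows, 49.5% hold at least 1 and 19.1% at least 3. Overlapping matches were each counted, and a match is a description of the window, not a binding site.

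The samples were checked first. Chd4, the siRNA target, was lower on every Mi2β siRNA array than on any control siRNA array, with a log2 change of -1.31 (SE 0.10, adjusted p = 0.00161 by limma). All 9 erythroid markers were well above background on all 6 arrays. Across genes, which are no replicates, arrays of 1 group had Pearson's r of 0.987 to 0.994, and arrays of different groups 0.980 to 0.987. Probes well above background made up 48.5% to 74.0% on the Mi2β siRNA arrays and 53.1% to 56.5% on the control siRNA arrays.

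Of the 4 members tested, Snrnp25 fell, and Nprl3, Mpg and Il9r did not pass the test, so that 1 of 4 fell and 0 rose by limma (0 of the 4 rose, and 1 fell, at an unadjusted p under 0.05, a cut that 23.9% of all genes met in either direction). Over all 22133 genes, 4.56% fell and 4.99% rose at an adjusted p under 0.05. The groups did not overlap in 2 of the 4 members, Snrnp25 and Mpg, against 31.1% of all genes tested. All 4 changes were negative, at -0.80, -0.24, -0.13 and -0.05 for Snrnp25, Mpg, Il9r and Nprl3, beside a median of -0.03 over all genes. Values throughout are log2 of the processed spot signal minus the array's 75th percentile, and a change is the mean of the Mi2β siRNA arrays minus that of the control siRNA arrays.

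**Figure D1:**
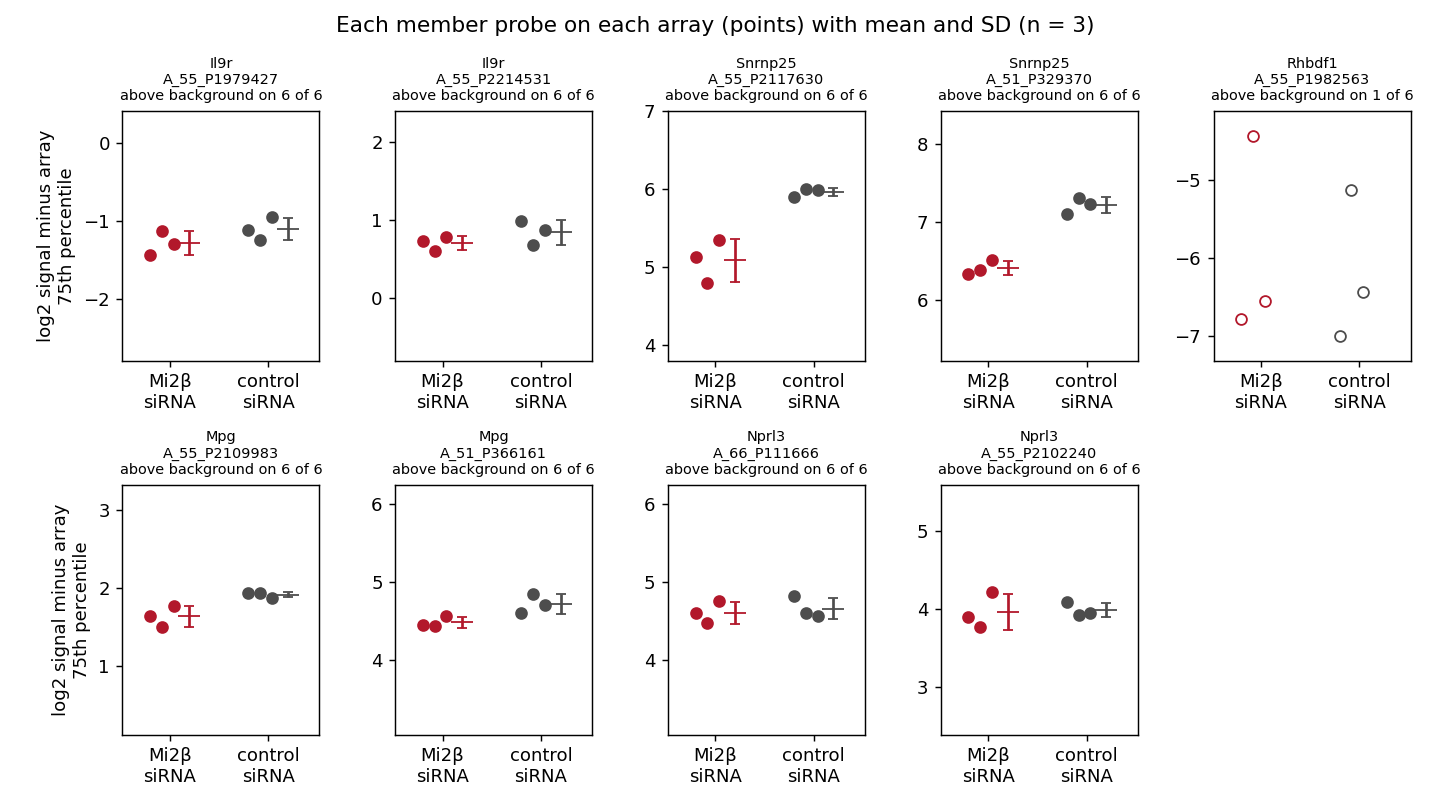
Each of the 9 member probes on each array, with a panel per probe: the y axis is the log2 signal minus the array's 75th percentile, every panel spans the same range, points are arrays, and the bar is the mean with its SD (n = 3). Both Snrnp25 probes lie lower on all Mi2β siRNA arrays, and the open points of Rhbdf1, which was above background on 1 of 6 arrays, carry no mean.

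Snrnp25, the splicing gene, fell with Mi2β knocked down and was the only one of the 4 tested members to pass. Its probe (A_51_P329370, chromosome 11, 32108874 to 32108933, plus strand, mm9) was at 6.34, 6.38 and 6.51 on the Mi2β siRNA arrays, against 7.11, 7.31 and 7.23 on the control siRNA arrays. The highest Mi2β siRNA array stayed below the lowest control siRNA array. The group means were 6.41 ± 0.09 with Mi2β siRNA and 7.22 ± 0.10 with control siRNA (SD, n = 3 each). The change was -0.80 (SE 0.10, 95% interval -1.06 to -0.55), or 1.75-fold lower (limma adjusted p = 0.00778). In bulk RNA, fewer cells of a type and less RNA per cell cannot be told apart.

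The deposited processed signals of that probe were 35927.7, 32870.7 and 37028.5 on the Mi2β siRNA arrays and 51047.6, 56920.3 and 59083.5 on the control siRNA arrays, before any scaling between arrays. The lower level was thus present in the unscaled intensities, and no spot was saturated on any array. A second Snrnp25 probe, 157 bases away at 32108717 to 32108776, was at 5.13, 4.80 and 5.35 with Mi2β siRNA and at 5.90, 6.01 and 5.99 with control siRNA. Its groups did not overlap either. Its change of -0.87 (SE 0.16, adjusted p = 0.0273 in a limma fit over all 31853 probes, of which 8.19% passed) was within 1 SE of that of the first probe. The 2 probes read the same RNA samples and are not replicates.

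Among all genes, the fall of Snrnp25 was one of many of its size. A change as low or lower was found in 504 of 22133 genes (2.28%), and 383 of the 1010 genes that fell did so at least as far. Of the 19 alternative settings, the deposited value table holds the same intensities, so its result was fixed in advance. The 2 other filters, the intensity trend and the blocks on replicate or slide row keep the same probe values. Under these the change stayed at -0.80 by construction, and only its SE or adjusted p could move. The call held in 15 of the 19, that one included, with changes over all 19 of -1.04 to -0.72 and adjusted p of 0.000307 to 0.112. It was lost in the other 4, among them array median scaling (-1.04, adjusted p = 0.112), slide row 1 alone (-0.85, adjusted p = 0.0647) and the fit without Mi2β siRNA replicate 1 (-0.77, adjusted p = 0.0524), all by limma. Blocking on the slide row gave -0.80 with a limma adjusted p = 0.0175. The slide column cannot be told apart from the group. Mi2β siRNA replicates 1, 2 and 3 were in columns 2, 4 and 2, and control siRNA replicates in columns 1, 3 and 1.

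**Figure D2:**
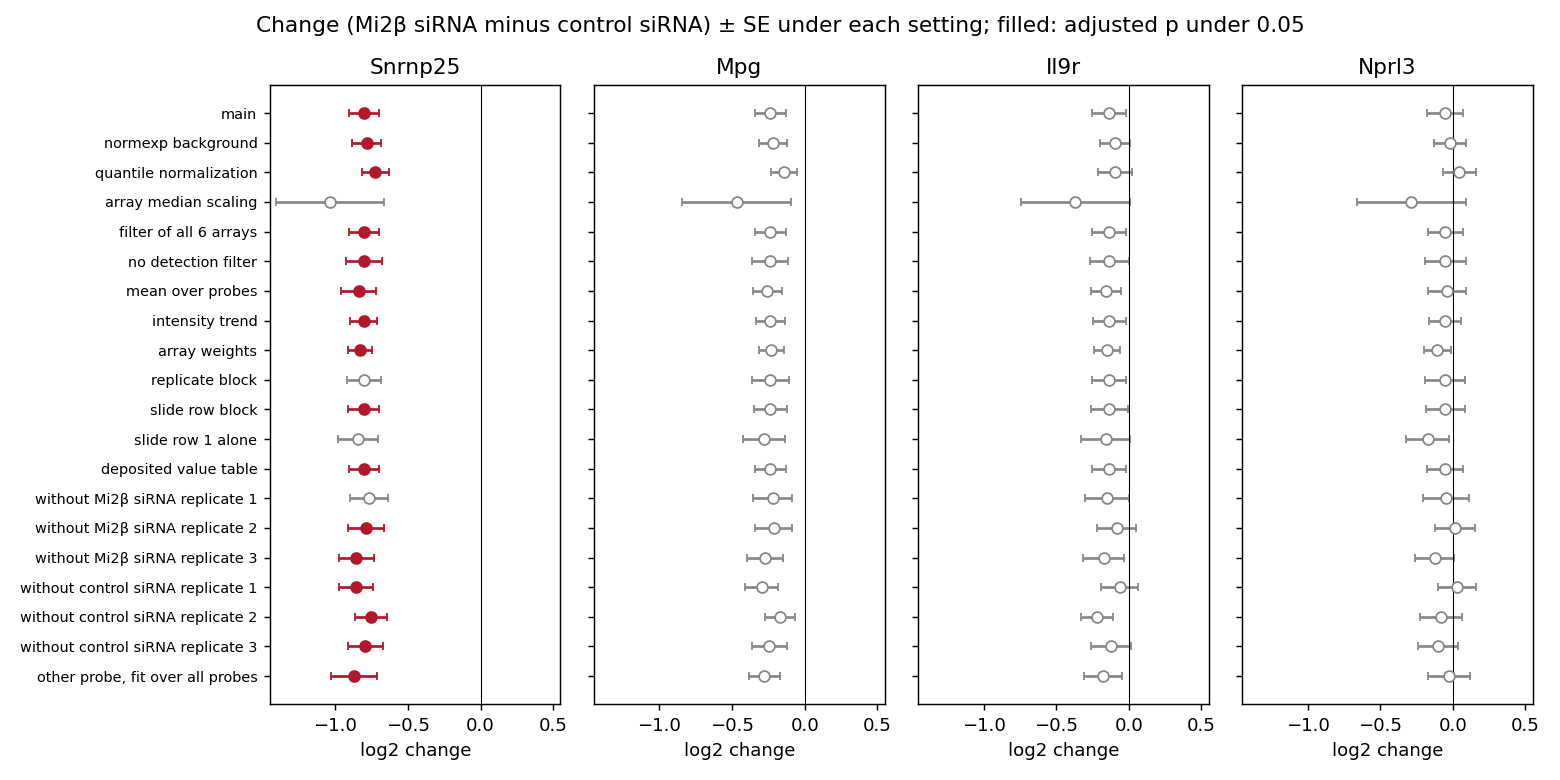
The log2 change (x axis, Mi2β siRNA minus control siRNA) of the 4 tested members under each setting (y axis), with its SE from limma, filled where the adjusted p was under 0.05. Snrnp25 lies between -1.04 and -0.72 throughout, and no alternative calls Mpg, Il9r or Nprl3.

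Nprl3, the GATOR1 gene whose introns hold alpha-globin enhancers, did not pass the test. Its probe (A_66_P111666, 32132881 to 32132940, minus strand) was at 4.60, 4.47 and 4.75 on the Mi2β siRNA arrays and at 4.82, 4.60 and 4.56 on the control siRNA arrays. The groups overlapped, with the highest value in a control siRNA array and the lowest in a Mi2β siRNA array. The change of -0.05 (SE 0.12, adjusted p = 0.845 by limma) had a 95% interval of -0.36 to 0.25. Its second probe, 85 bases away, gave 3.90, 3.76 and 4.21 with Mi2β siRNA and 4.09, 3.92 and 3.95 with control siRNA, a change of -0.03 (adjusted p = 0.939 by limma over all probes). Its sign was not stable: the change was 0.05 with quantile normalization, and ranged from -0.12 to 0.03 when single arrays were left out.

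Mpg, the DNA glycosylase gene that overlaps Nprl3, also did not pass, although its groups did not overlap on either probe. The probe standing for the gene (A_51_P366161, 32131904 to 32131963, plus strand) was at 4.45, 4.44 and 4.56 with Mi2β siRNA and at 4.60, 4.85 and 4.71 with control siRNA. The nearest arrays of the 2 groups were only slightly apart. The change was -0.24 (SE 0.10, 95% interval -0.49 to 0.02, adjusted p = 0.245 by limma). The second probe, at 32127889 to 32127948, was at 1.64, 1.51 and 1.77 with Mi2β siRNA and at 1.93, 1.94 and 1.88 with control siRNA. Its change of -0.28 had an adjusted p = 0.195 over all probes by limma (unadjusted p = 0.0397). In 19 alternatives the change of Mpg kept its sign, from -0.47 to -0.14, and none called it (adjusted p 0.104 to 0.670). As for Snrnp25, the filter, trend and block settings could not move the change itself.

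Il9r, the receptor gene farthest from the globins, did not pass. Its probe (A_55_P2214531, 32090499 to 32090558, minus strand) was at 0.74, 0.61 and 0.79 with Mi2β siRNA and at 0.99, 0.67 and 0.87 with control siRNA. The groups overlapped. The change was -0.13 (SE 0.12, 95% interval -0.42 to 0.16, adjusted p = 0.562 by limma). The other Il9r probe, at 32089002 to 32089061, was at -1.43, -1.13 and -1.30 with Mi2β siRNA and at -1.12, -1.25 and -0.96 with control siRNA, a change of -0.18 (adjusted p = 0.497 over all probes by limma). Both probes were well above background on all 6 arrays.

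Rhbdf1, the rhomboid gene, was close to undetected and was not tested. Its only probe (A_55_P1982563, 32109587 to 32109646, minus strand) was well above background on 1 of 6 arrays, Mi2β siRNA replicate 2. The processed signals were 4.05, 18.2 and 4.33 on the Mi2β siRNA arrays and 2.89, 10.3 and 4.52 on the control siRNA arrays. The second replicate was the brightest of each group, and the groups overlapped. On each of the 5 arrays where the probe was not well above background, its signal lay below the lowest well-above signal of that same array. That lowest signal was smallest, at 9.24, on Mi2β siRNA replicate 2. The same array also had the most probes well above background, 74.0%. No fold is given, since the control siRNA group had no array above background.

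The change in Snrnp25 was set against that of the other 3 tested members on the same arrays. The difference between the change of Snrnp25 and that of the other gene was -0.75 for Nprl3, -0.67 for Il9r and -0.57 for Mpg. In each pair the per-array difference was lower on every Mi2β siRNA array than on any control siRNA array. Snrnp25 was set apart as the member that passed on these same arrays. The separation follows largely from that and is no further support. The exact two-sided permutation p was 0.1 for each of the 3 pairs (0.1 after Benjamini-Hochberg adjustment), the smallest that 3 arrays against 3 allow, so a threshold of 0.05 could not be reached. The order of the 4 changes from lowest was Snrnp25, Mpg, Il9r and Nprl3, and the 95% intervals of the last 3 overlap one another and include 0. The interval of Snrnp25 lies wholly below the other 3.

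Of the 5 globins beside these neighbours, Hba-x rose and the other 4 did not pass. Hba-x was at -0.57, -0.69 and -0.75 on the Mi2β siRNA arrays and at -4.59, -3.84 and -4.19 on the control siRNA arrays, a change of 3.54 (SE 0.20, adjusted p = 0.000619 by limma), with 2 of 3 control siRNA arrays well above background. With normexp background correction the change of Hba-x was 1.77 (adjusted p = 4.01e-06 by limma). The adult genes did not pass, with changes of 0.09 for Hba-a1 (adjusted p = 0.632) and -0.09 for Hba-a2 (adjusted p = 0.699), both by limma. The theta-globin genes Hbq1b and Hbq1a had changes of -0.45 (adjusted p = 0.0526) and -0.24 (adjusted p = 0.204) by limma. Hbq1b was called, as a fall, in 5 of 18 alternatives and Hbq1a in 0. The Hba-a1 and Hba-a2 genes are near-identical copies, and their probes cannot be assumed to tell them apart. The member probe nearest to that of Hba-x, a Nprl3 probe, lies 44642 bases from it, and Nprl3 did not pass. The Nprl3 gene itself reaches closer. Its RefSeq start window is chr11:32267658-32267957, and that of Hba-x is chr11:32276350-32276649 (GRCm38.p6).

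Outside the members and globins, limma called 0 of 11 tested features within 500 kb of the globin probes (1 at an unadjusted p under 0.05), against 9.56% of all genes called in either direction and 23.9% at the unadjusted cut. The window held 16 such features, of which 10 have a gene symbol and 5 of these were tested. Stk10, a serine/threonine kinase gene at 346.6 kb, had the lowest p of the 11. It was at 1.26, 1.12 and 1.32 with Mi2β siRNA and at 0.77, 0.73 and 0.93 with control siRNA, a change of 0.43 (SE 0.11, adjusted p = 0.0637 by limma) without overlap of the groups. The others were Cpeb4 at -0.17, Fbxw11 at -0.15, Nsg2 at -0.05 and D630024D03Rik at -0.44, with adjusted p of 0.445 to 0.946 by limma. Not tested for lack of signal were 4930524B15Rik, Gm12108, Sh3pxd2b, Ubtd2 and Efcab9. The features nearest Il9r on its far side, neither with a gene symbol, had changes of -0.02 and -0.10 and did not pass.

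**Figure D3:**
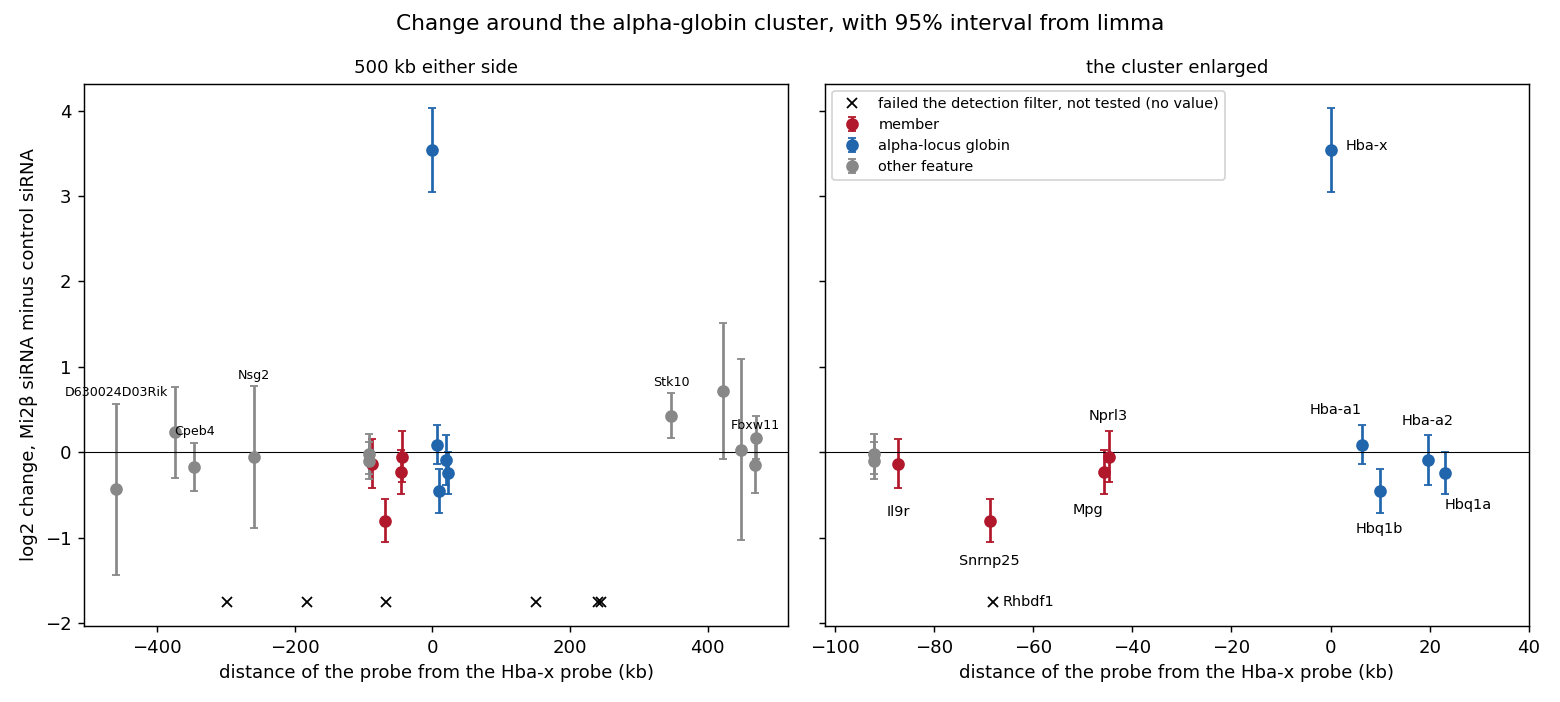
The log2 change (y axis, Mi2β siRNA minus control siRNA, with the 95% interval from limma) against the distance of each probe from the Hba-x probe (x axis, kb), for 500 kb on either side and enlarged around the cluster. Snrnp25 at -0.80 is the lowest tested feature shown, Hba-x at 3.54 the highest, and crosses mark features with no test.

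Genes that act with each member were counted in 5 lists drawn from textbook pathways. The counts of each list stand beside 4.99% of all genes that rose and 4.56% that fell. At an unadjusted limma p under 0.05, 23.9% of all genes passed. By list these were 6 of 21 (minor spliceosome), 3 of 13 (GATOR and KICSTOR), 11 of 21 (base excision repair), 3 of 12 (rhomboid and ADAM17) and 7 of 11 (interleukin-9). In the minor spliceosome list of Snrnp25, 0 of 21 tested genes rose and 1 fell, with a median change of -0.05. Zrsr1, a retrogene related to the splice-site factor gene Zrsr2, was at 2.53 ± 0.06 with Mi2β siRNA and at 3.48 ± 0.28 with control siRNA (SD, n = 3 each), a change of -0.96 (adjusted p = 0.0174 by limma). The 3 largest changes that did not pass were Zmat5 at -0.57, Snrnp35 at -0.35 and Sf3b1 at -0.32. Zmat5 and Snrnp35 encode proteins of the same particle as Snrnp25, and Sf3b1 is shared with the major spliceosome. The call of Zrsr1 was lost without Mi2β siRNA replicate 1 or 2 and without control siRNA replicate 1 or 2.

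In the GATOR and KICSTOR list of Nprl3, which covers the sensors and complexes that link amino acids to mTORC1, 0 of 13 tested genes rose and 1 fell, with a median of -0.09. Depdc5, which encodes another subunit of GATOR1, was at 0.37 ± 0.14 with Mi2β siRNA and at 0.99 ± 0.16 with control siRNA (SD, n = 3 each), a change of -0.62 (adjusted p = 0.0383 by limma). The third GATOR1 subunit gene, Nprl2, had a change of -0.27 and did not pass. Itfg2, Castor2 and Wdr59, the largest of those that did not pass, had changes of 0.37, 0.36 and 0.36. Depdc5 was called in 6 of 18 alternatives and in none that left out an array. With the mean over its probes in place of the brightest, its change was -0.36 (adjusted p = 0.0874 by limma).

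The base excision repair list of Mpg had 1 rise and 3 falls among 21 tested genes, with a median of -0.24, the second lowest of the 5 lists. The glycosylase genes Mutyh, Neil1 and Neil3 fell, with changes of -1.05 (adjusted p = 0.00266), -0.83 (adjusted p = 0.0078) and -0.47 (adjusted p = 0.0423) by limma. Smug1, a uracil glycosylase gene, rose by 0.53 (adjusted p = 0.0275 by limma). These 4 are, like Mpg, genes for DNA glycosylases. So are Mbd4, Ung, Ogg1, Tdg and Nthl1, which did not pass, with changes of -0.38, -0.29, -0.17, -0.07 and 0.16. The ligase genes Lig3 and Lig1 had changes of -0.56 and -0.46, and the glycosylase gene Neil2 of 0.53, and none of these 3 passed. Without Mi2β siRNA replicate 1, 2 or 3, or without control siRNA replicate 1 or 2, 2 genes of the list were called. Mutyh was called in all 18 alternatives, Neil1 in 15, Smug1 in 9 and Neil3 in 6.

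In the rhomboid and ADAM17 list of Rhbdf1, 1 of 12 tested genes rose and 1 fell, with a median of -0.10. Tnf, a cytokine that ADAM17 sheds, was at -1.99 ± 0.09 with Mi2β siRNA and at -4.07 ± 0.25 with control siRNA (SD, n = 3 each), a change of 2.07 (adjusted p = 0.00119 by limma). With normexp background correction the change of Tnf was 0.82 (adjusted p = 0.000211 by limma). Rhbdd2, a rhomboid-domain gene, fell by 0.83 on the log2 scale (adjusted p = 0.00406 by limma). The largest changes that did not pass were Rhbdd1 at -0.68, Rhbdl2 at 0.39 and Rhbdd3 at -0.27. The ligand genes Areg, Hbegf and Ereg were not tested for lack of signal.

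The interleukin-9 list of Il9r had 1 rise and 2 falls among 11 tested genes, with a median of -0.42, the lowest of the 5 lists, beside -0.03 over all genes. Il2rg, the common gamma chain that pairs with the Il9r product, was at 1.21 ± 0.17 with Mi2β siRNA and at -1.77 ± 0.03 with control siRNA (SD, n = 3 each), a change of 2.98 (adjusted p = 0.000165 by limma). The signalling factor gene Stat5a and the inhibitor gene Cish, itself a STAT5 target, fell, with changes of -0.89 (adjusted p = 0.007) and -1.02 (adjusted p = 0.00478) by limma. Socs3 at -0.64, Jak1 at -0.63 and Jak3 at -0.43 did not pass. The ligand gene Il9 was not tested for lack of signal. Over the 5 lists, 3 of 78 genes rose and 8 fell, beside 4.99% and 4.56% of all genes.

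**Figure D4:**
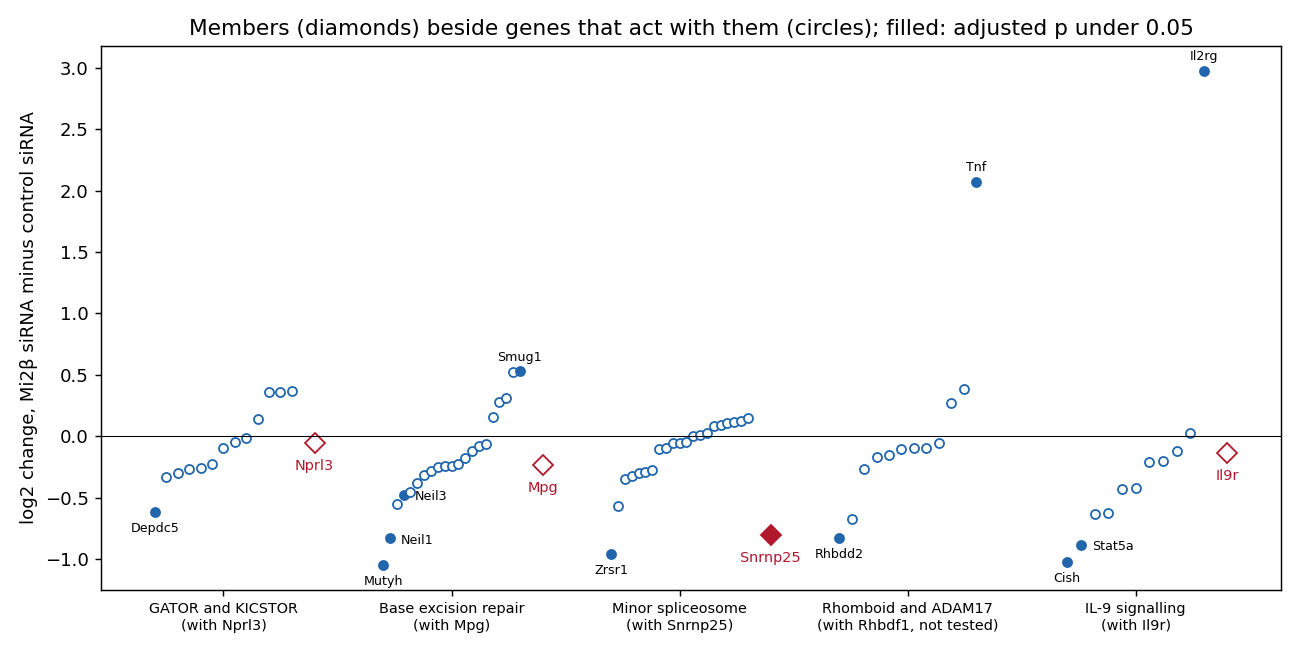
The log2 change (y axis, Mi2β siRNA minus control siRNA) of each tested gene in the 5 lists (circles, ordered by change) and of the member each list belongs to (diamonds), filled where the adjusted p was under 0.05. Il2rg at 2.98 and Tnf at 2.07 (0.82 with normexp) are the highest values plotted, while Nprl3, Mpg and Il9r lie near 0.

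The genes whose values over the 6 arrays were most like each member's, after centring each gene, were taken from 14268 genes by the root mean square difference in log2 units. For Snrnp25 these were St3gal2 on chromosome 8 at 0.03, Hsd3b7 on chromosome 7 at 0.04 and Hint3 on chromosome 10 at 0.04. Their own changes were -0.76, -0.78 and -0.73. For Nprl3 they were Safb2, Med12 and Synj1, for Mpg Churc1, Actr6 and Map4k5, and for Il9r Sap25, Tfip11 and Gpa33. The genes were picked on these same values, so their changes resemble that of the member by construction. None of these 12 genes lies on chromosome 11. Besides members and globins, only 5 tested genes with a symbol lie within 500 kb, so a neighbour was unlikely to appear among so few.

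Marker lists of other blood cells were read because Il9r is also made by mast cells and lymphocytes. Of 6 mast cell markers, 5 were well above background on at least 3 arrays and 4 rose (Mcpt1, Mcpt4, Tpsab1 and Hdc). Tpsab1 was well above background on no control siRNA array and passed the detection filter only through the Mi2β siRNA arrays, while the receptor gene Fcer1a was well above background on no array. Their summed level, in multiples of the array's 75th percentile, was 4.04 to 4.65 on the Mi2β siRNA arrays and 0.838 to 0.988 on the control siRNA arrays. Of 6 megakaryocyte markers, 4 were detected and 2 fell (Gp9 and Pf4), with sums of 9.50 to 12.8 with Mi2β siRNA and 30.7 to 36.5 with control siRNA. Itga2b of the same list had a change of 1.51 the other way (adjusted p = 0.0508 by limma, not passed), and Ppbp was well above background on no array. Of the 9 erythroid markers, 2 rose by limma, Alas2 with a change of 1.06 (adjusted p = 0.00467) and Hbb-bt of 0.81 (adjusted p = 0.00933). Slc4a1, the red-cell anion exchanger gene, fell, with a change of -1.04 (adjusted p = 0.0121 by limma). The erythroid sum, which includes the bright globins, was 2080 to 2295 with Mi2β siRNA and 1608 to 1742 with control siRNA. Of the T lymphocyte, B lymphocyte and neutrophil or monocyte markers with probes, 2 of 5, 1 of 5 and 3 of 6 were detected. The T lymphocyte gene Trac had no probe under that name. No member of those lists passed limma's test (1, Csf1r, had an unadjusted p under 0.05). The sums of these lists, in the same order, were 8.15 to 9.41, 0.227 to 0.457 and 140 to 150 with Mi2β siRNA. With control siRNA they were 8.88 to 10.4, 0.226 to 0.278 and 131 to 170. The part of the marker shifts in the values of Snrnp25 and the other members was not tested.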

How the data were processed

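RNA of 6 samples was read on 1-colour Agilent arrays (Cy3, 0.1 µg RNA, 1 slide). The values are linear spot intensities, for which, per the file headers, Agilent Feature Extraction 10.7.3.1 subtracted the background. Arrays were not scaled to each other. Limma is named in the submitters' processing notes, without settings. The value table deposited by the authors repeats these intensities (100% within 0.005), linear and uncentred, with medians of 25.9, 36.93 and 17.83 for Mi2β siRNA and 21.23, 16.95 and 20.92 for control siRNA.

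Control and outlier spots were left out, log2 signals were set against the array's 75th percentile, and spots of a probe were averaged. Probes well above background on 3 or more arrays were fitted, and the brightest stood for its gene (22133 genes). The test was limma 3.58.1 in R 4.3.3, two-sided, with Benjamini-Hochberg adjustment at 0.05, and was tested on simulated data. With 200 of 22133 genes changed, fewer than were called here, it recovered 13.4% of 1.5-fold, 38.8% of 2-fold and 83.3% of 4-fold changes. A gene that did not pass may therefore still differ. Names were updated by RefSeq accession (27509 of 29150 matched). Probe coordinates are mm9; no genome of that build was used, so exon or intron is not given. The number of arrays limits the precision.

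Named were the members, Chd4, the alpha-locus globins, genes with a symbol within 500 kb, up to 6 called and 3 other genes per list, and 3 nearest profiles per member. Marker genes and other names were chosen after their values were seen. Members and lists were chosen with earlier results of these data known. Alternatives covered background, scaling, filter, probe rule, trend, array weights, replicate block, slide row, value table and single replicates.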

Additional observations from a re-analysis of the deposited data

How the results depend on the processing

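Snrnp25 kept its direction in all 19 alternatives and its call in 15, among them the value table with the same intensities. Its direction was fixed in advance there and under the filter, trend and block settings, which keep the same probe values. Its change was -1.04 with array median scaling, -0.80 with the replicate block (adjusted p = 0.0579 by limma) and -0.85 in slide row 1 alone, and lay from -0.86 to -0.76 when single replicates were left out, the call being lost without Mi2β siRNA replicate 1. In those 4 cases 0 members were called, against 0 to 1 over all single omissions. Array median scaling moved the median of all genes to -0.27, so that Snrnp25 stood -0.77 from it. Nprl3, Mpg and Il9r were called in 0 of 19. Against 2115 genes called in all, there were 831 with array median scaling, 993 without the filter, 3306 with an intensity trend, 4729 with array weights, 685 with the replicate block, 720 in row 1 and 813 to 1579 with a replicate left out, the lower counts without Mi2β siRNA replicate 1 or 2 or control siRNA replicate 1 or 2. Against 11 list genes there were 20 with normexp, 5 with median scaling, 18 with the filter of all 6 arrays, 7 without the filter, 20 with a trend, 26 with weights, 5 with the block, 6 in row 1 and 7 to 11 with a replicate left out. In the window, 1 gene, Stk10, was called with quantile normalization, normexp, a trend, weights or the filter of all 6 arrays, and 2, Fgf18 and Ranbp17 (chosen after their values were seen), rose within 1000 kb. With normexp the change of Hba-x was 1.77 and that of Tnf 0.82. The cause of these shifts was not tested. Same-numbered arrays of the 2 groups correlated at 0.21, -0.32 and 0.13 in their deviations, so the numbers were not taken as pairs. For Rhbdf1, which has 1 probe below the filter, no alternative gave a value that could be read as a change. Signals near background, as for Rhbdf1, set the limit of what could be compared.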
